A study of Sus scrofa with 13 samples.

Results

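The testis-restricted genes described here were the Ensembl genes of the pig that were abundant in testis and close to silent in 8 other organs of the same age. They were selected on measured values: an RPKM (read count scaled to gene length and library size) of at least 40 in testis, a higher value in testis than in any other organ, and a tau of at least 0.9. Tau is an index of tissue specificity that runs from 0 for a gene at the same level everywhere to 1 for a gene found in 1 organ, here computed on log2(RPKM + 0.1) over 9 organs. Of 21607 Ensembl genes, 127 met the rule, a share of 0.588%. The number depends on how libraries are scaled: 69 of these genes met it with every library at the same summed RPKM and 61 with median ratios. Since the rule used the RPKM of the 9 organs, the values in these organs are given as a description.

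Total RNA depleted of ribosomal RNA was sequenced from 13 libraries. Single-tissue libraries came from Guizhou mini-pigs at postnatal 240 days (heart, liver, spleen, lung, kidney, testis, ovary, adipose and longissimus dorsi muscle) and from longissimus dorsi at postnatal day 0 and day 30. A tissue mixture and a muscle mixture pooled equal quantities of RNA from samples of multiple breeds and time points, and the labels do not name the tissues in the tissue mixture. Each tissue or stage had 1 library and the number of animals behind it is not given, so no difference between libraries has a replicate check and no test between tissues was made. Muscle at day 0, muscle at day 30 and both mixtures were not used by the rule.

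Spermatogenesis runs from dividing spermatogonia through meiotic spermatocytes to haploid spermatids, which condense their chromatin, form an acrosome and build a flagellum. Many of the proteins needed for these steps are encoded by genes that are transcribed in male germ cells and in few other cells. In late spermatids, histones are replaced first by transition proteins and then by protamines. Testis also holds Sertoli cells, which nurse the germ cells, and Leydig cells, which make androgens.

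Markers of cell types are given as a description, since germ cell markers that were members had been chosen for high values in testis. Of 10 marker symbols for testis germ cells, 9 were found among the Ensembl genes, all 9 were highest in testis and 7 were members. Their summed RPKM was 5995 in testis, 10.8 in ovary and 3.33 in heart. In the other 10 libraries it ran from 0 in liver to 0.998 in the tissue mixture. Of 5 markers of Leydig cells none was a member, and their summed RPKM was 1905 in testis and 788 in ovary. Of these markers 4 were highest in testis, and CYP11A1 alone made up 638 of the sum in ovary. HSD17B3 had a tau of 1 and missed only the limit of 40 RPKM, at 13.7 in testis. The 4 markers of Sertoli cells summed to 8.19 RPKM in testis and 75.1 in ovary, and 71.4 of the latter was CLDN11, a tight junction protein. CRISP1, the only marker of epididymis that was found, was listed at 0 in testis. In such tissue libraries, fewer cells of a type and less RNA per cell cannot be told apart.

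The 127 members spanned a wide range of levels in testis. Their testis RPKM had a median of 69.0, quartiles of 52.7 and 112 and a range of 40.3 to 3203. Of the members, 91 were below 100 RPKM, 36 were at 100 or more and 16 were at 200 or more. The sum was carried by few genes, since PRM1 alone made up 17.7% of the summed RPKM of the members and the top 10 made up 45.6%. Members held 9.51% of the summed RPKM of all features in testis and 5.13% of the counted reads. Whole reads could be worked back from the RPKM, and a member had between 172 and 77410 reads in testis with a median of 3143. For 30 members found in few libraries, among them the one with 172, these reads are lower bounds. The median may therefore be too low. A gene symbol was available for 78 members, and 49 are known here by identifier alone.

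**Figure D1:**
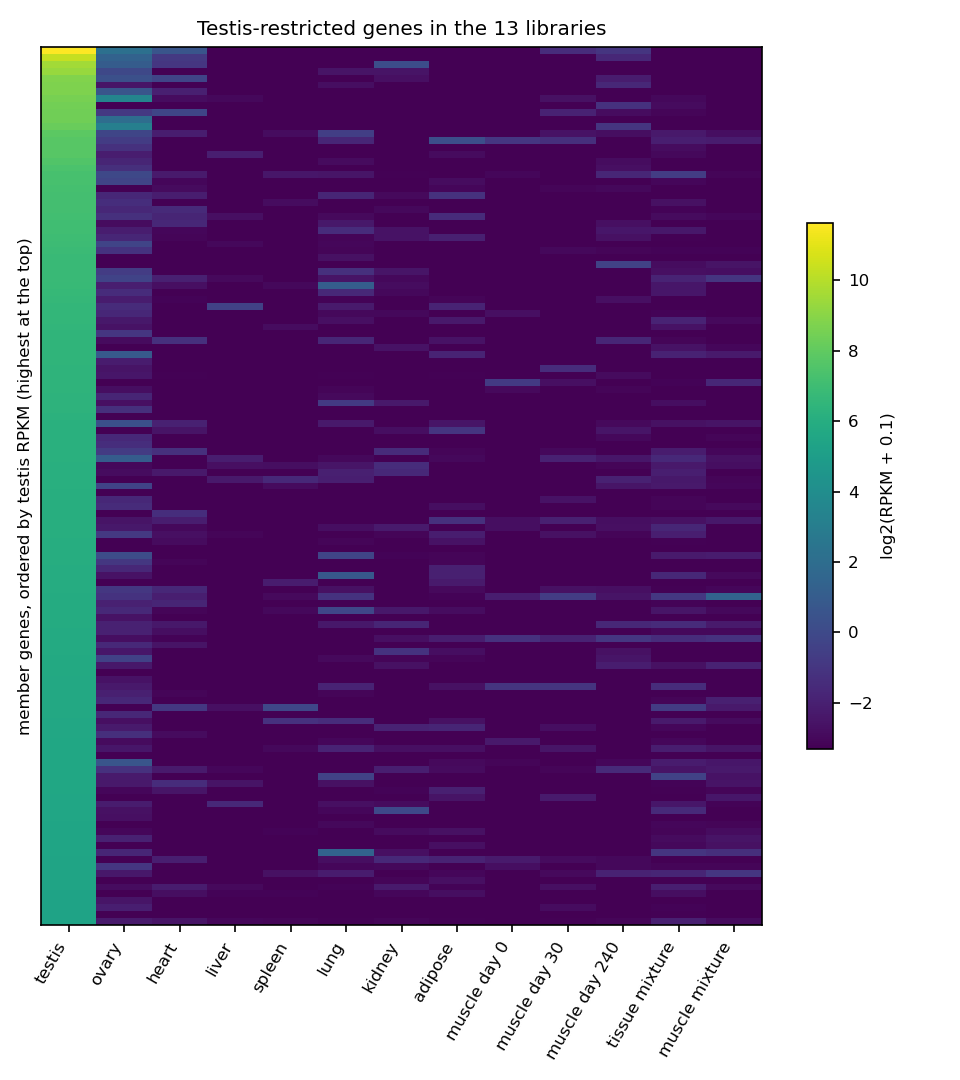
Levels of the 127 member genes (rows, ordered by testis RPKM) in the 13 libraries (columns), as log2(RPKM + 0.1) by colour. The testis column is filled from 40.3 to 3203 RPKM, ovary holds faint signal for 103 members, and the other columns are mostly at or near 0.

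The 2 members highest in testis, PRM1 and TNP1, take part in packing the DNA of the sperm head. H1-7 and PRM2, described with them below, ranked 17 and 31. PRM1, which encodes protamine 1, had 3203 RPKM in testis (95% exact Poisson interval 3157 to 3249, from 18907 reads). Outside testis, PRM1 was at 4.52 RPKM in ovary (15 reads), 1.45 in heart (8 reads), 0.401 in muscle at day 240 (2 reads) and 0.267 in muscle at day 30 (1 read). It was listed at 0 in liver, spleen, lung, kidney, adipose, muscle at day 0 and both mixtures. These intervals cover counting error only. Testis was 708-fold above ovary, the next organ for PRM1.

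TNP1, which encodes transition protein 1, had 1278 RPKM in testis from 20660 reads, more reads than PRM1 from a longer gene model. It was at 2.53 RPKM in ovary (23 reads), 0.464 in heart (7 reads) and 0.219 in muscle at day 240 (3 reads), and at 0 in the other 9 libraries. PRM2, which encodes protamine 2, had 113 RPKM in testis and 1 read in lung, and was listed at 0 in the remaining 11 libraries. Per length, PRM2 thus stood far below PRM1 in the same library. H1-7, a linker histone of spermatids, had 194 RPKM in testis and at most 3 reads in any other library. HMGB4, a high mobility group protein of male germ cells, had 424 RPKM in testis, 1.41 in ovary and 0.150 in heart, and was at 0 elsewhere. Of 9 listed genes of chromatin condensation with an Ensembl identifier, all 9 were highest in testis at 40 RPKM or more and 6 were members.

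The other 3 genes of that list missed the rule by tau alone. TNP2, which encodes transition protein 2, reached 1001 RPKM in testis but had a tau of 0.841. Its next values were 1.40 RPKM in heart (39 reads) and 1.36 in ovary (23 reads), followed by 0.725 in the tissue mixture, 0.530 in spleen and 0.496 in kidney. PHF7, a reader of histone marks in male germ cells, had 329 RPKM in testis, and CHD5, a chromatin remodeler, had 45.0.

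Genes of the acrosome and of sperm-egg interaction gave the largest number of members of any list, but not the largest share, since chromatin condensation gave 6 of 9. The gene lists were chosen with earlier results of these data known and mostly for roles in testis. Their counts are therefore a description and were not compared with all genes highest in testis. Of 35 listed genes that were measured, 33 were highest in testis, 12 were members, 13 had a tau of at least 0.9 at a level under 40 RPKM and 4 were abundant with a lower tau. CLGN, a chaperone of the endoplasmic reticulum needed for sperm surface proteins, had 158 RPKM in testis from 23565 reads. It was above 0 in 9 of the other 12 libraries, with 0.862 RPKM in ovary, 0.522 in the tissue mixture (218 reads) and 0.199 in muscle at day 240. CRISP2, a cysteine-rich protein of the acrosome and tail, had 157 RPKM in testis and 0.751 in ovary. CYLC2, a cytoskeletal protein of the sperm head, had 133 RPKM in testis and 0.215 in heart, its next organ. ACTL7A, an actin-like protein of the acrosome, had 125 RPKM in testis and 0.734 in ovary (21 reads).

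ACR, which encodes the acrosomal protease acrosin, had reads in libraries outside the rule. It had 83.6 RPKM in testis and 0 in all 8 other organs, which gave it a tau of 1. In muscle at day 0, however, ACR had 0.485 RPKM (13 reads, 95% interval 0.258 to 0.829), the highest value of any member there. Other members, without a symbol, were at 0.424, 0.378 and 0.334 RPKM in that library, within this interval. ACR had 0.212 RPKM in the muscle mixture (10 reads), 1 read each in muscle at day 30 and the tissue mixture, and none in muscle at day 240. PDILT, a protein disulfide isomerase-like partner of calmegin, had 46.1 RPKM in testis and 0.877 in kidney (49 reads), where it was among the 3 highest members.

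The list of flagellum, axoneme and fibrous sheath included SPATA genes, which are named for spermatogenesis. Of its 50 measured genes, 49 were highest in testis and 8 were members. Another 15 were restricted by tau at under 40 RPKM, and 13 were abundant but less restricted. SMCP, a protein of the sheath of mitochondria in the sperm midpiece, led the list with 341 RPKM in testis. Its next value was 0.790 RPKM in heart (20 reads), above the 0.459 in ovary (7 reads), and the 95% intervals of these values overlapped. TPPP2, a tubulin-binding protein, had 232 RPKM in testis, 0.780 in ovary and 0.583 in lung. AKAP4, the main scaffold of the fibrous sheath, had 130 RPKM in testis and 0.272 in lung, and SPATA3 had 145 RPKM in testis and 0.293 in ovary. CETN1, a centrin of male germ cells that was not in the list, had 454 RPKM in testis, 1.16 in ovary and 0.750 in heart (14 reads). CABYR, a calcium-binding protein of the fibrous sheath, had 262 RPKM in testis but missed tau at 0.755, with 3.91 RPKM in lung and 3.22 in liver.

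Lung was the second organ of 11 members, or 8.66%, against 11.6% of the 578 Ensembl genes highest in testis at 40 RPKM or more, and 3 members reached 1 RPKM there. Those named here were taken for their level in lung or in the tissue mixture. DNAAF1, an assembly factor of the dynein arms that drive cilia and flagella, had 108 RPKM in testis and 1.997 in lung (152 reads). TEKT2, a tektin of axonemal microtubules, had 62.3 RPKM in testis and 1.62 in lung (87 reads). KIF17, a kinesin motor that also works in cilia, had 48.8 RPKM in testis and 0.680 in lung (31 reads). In ovary these 3 genes were at 0.134, 0.0635 and 0.112 RPKM, respectively. PRM2 and AKAP4, described above, also had lung as their second organ.

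**Figure D2:**
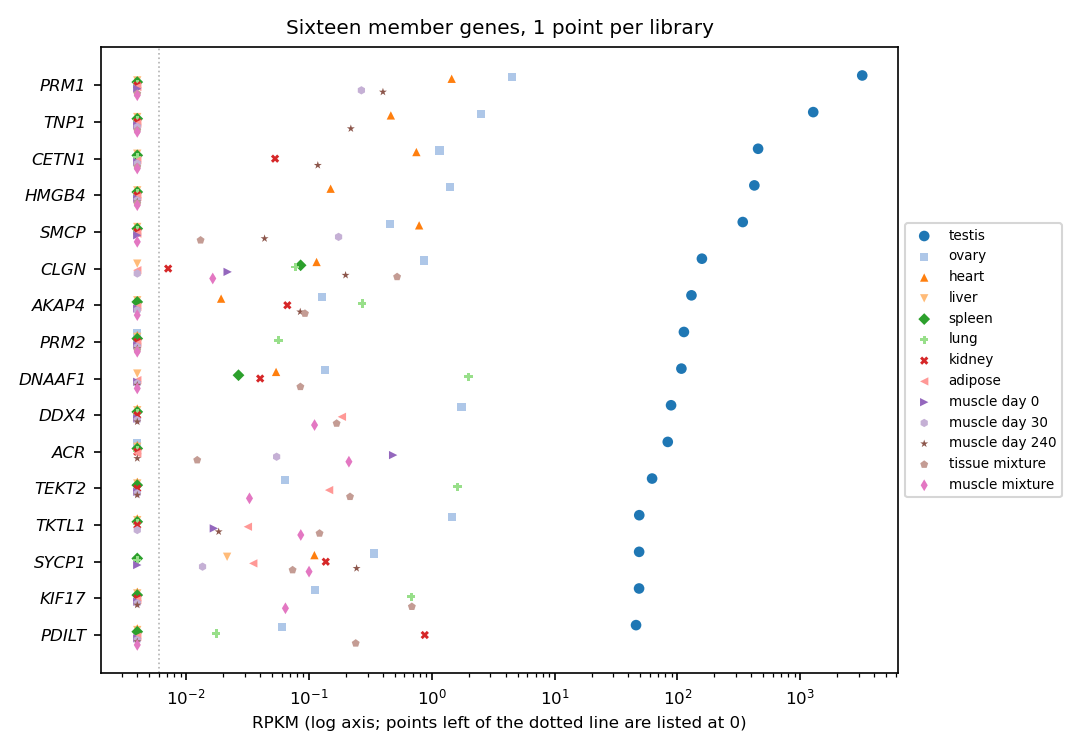
RPKM (log axis) of 16 member genes in the 13 libraries, with 1 symbol per library and values listed at 0 left of the dotted line. Testis lies between 46.1 and 3203 RPKM for every gene shown, and the next library is ovary for TNP1 and DDX4, heart for SMCP, lung for DNAAF1 and TEKT2 and kidney for PDILT.

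The list of glycolysis and energy metabolism of spermatids also took in genes with other roles, such as TXNDC8 and GPX4. Of its 16 measured genes, 14 were highest in testis and 4 were members. ACSBG2, an acyl-CoA synthetase, had 129 RPKM in testis and TXNDC8, a thioredoxin of spermatids, had 113. GK2, a glycerol kinase, had 83.5 RPKM and LDHC, the germ cell form of lactate dehydrogenase, had 48.1. TXNDC8 was at 0.672 RPKM in muscle at day 240 (5 reads), the highest of any member in that library, and LDHC was at 0.280 in heart (9 reads). The abundant genes of the list that were not restricted included GPX4, a glutathione peroxidase also used for the sperm midpiece, at 303 RPKM in testis and 142 in ovary with a tau of 0.315. In the list of protein kinases and phosphatases, 1 of 14 measured genes was a member. This gene, TSSK2, a kinase of spermatids, had 67.9 RPKM in testis and was listed at 0 in the other 12 libraries. TSSK6, a related kinase counted above with chromatin condensation, was also a member, at 89.0 RPKM in testis, with 2 reads in kidney, 1 in the muscle mixture and 6 in the tissue mixture.

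Genes of meiosis were mostly highest in testis but seldom reached the level of the rule. Of 31 measured genes, 28 were highest in testis, 11 were restricted at under 40 RPKM and 4 were members. SYCE1 and SYCE3, parts of the central element of the synaptonemal complex, had 91.2 and 80.2 RPKM in testis. HORMAD2, which marks unsynapsed chromosome axes, had 51.0 RPKM. SYCP1, the transverse filament of the complex, had 48.8 RPKM and was above 0 in 9 of the other 12 libraries, with 0.337 RPKM in ovary (22 reads) and 0.244 in muscle at day 240 (24 reads). SYCE3 had 2 reads in ovary and none in the other 11 libraries.

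In the list of RNA binding and translation control, 17 of 28 measured genes were restricted at under 40 RPKM and DDX4 was the only member. DDX4, the germ cell helicase also known as VASA, had 88.9 RPKM in testis and 1.74 in ovary (27 reads, 95% interval 1.15 to 2.54), with 0.186 in adipose, 0.111 in the muscle mixture and 0.168 in the tissue mixture. It was at 0 in heart, liver, spleen, lung, kidney and the 3 single muscle libraries. Of the 16 measured genes in the list of transcription in spermatocytes and spermatids, 15 were highest in testis and none was a member. The most abundant of them, KCTD19, had 41.4 RPKM and a tau of 0.878. SPZ1, a transcription factor of spermatogenesis that stood in no list, was a member with 72.1 RPKM in testis and 0.392 in adipose (17 reads).

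Of 23 measured genes of ubiquitin and protein turnover, 21 were highest in testis and 3 were members. HSPB9, a small heat shock protein, had 71.7 RPKM in testis, UBQLNL, a ubiquilin-like protein, had 53.2 and USP50, a ubiquitin peptidase, had 43.2. TKTL1, a transketolase-like protein, was the only member among 15 measured genes of spermatogonia, a list in which 5 genes were highest in testis and 5 in ovary. TKTL1 had 49.0 RPKM in testis and 1.47 in ovary (53 reads), the largest share of the testis level that any member had in ovary, at 3.0%.

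The lists of somatic testis cells are too small for their counts to be read against the 0.588% of all Ensembl genes that were members. Of 14 measured genes of Sertoli cells none was a member and 5 were highest in ovary. CLU, a secreted chaperone and the most abundant of them in testis, had 456 RPKM there and 1411 in ovary. The list of Leydig cells and steroid synthesis had 14 measured genes and 1 member. This was INSL6, a hormone of the insulin and relaxin family, at 53.0 RPKM in testis and 0.216 in ovary. The cell type that expresses INSL6 cannot be read from these libraries, and none of the 5 markers of Leydig cells was a member. INSL3, the insulin-like hormone of Leydig cells, had 1229 RPKM in testis and missed tau at 0.860, with 99.1 RPKM in ovary. CYP17A1, an enzyme of androgen synthesis, had 548 RPKM in testis, 35.2 in ovary and a tau of 0.890. None of 16 genes of oocyte and ovary and none of 11 genes of epididymis was a member, and 7 of the latter were listed at 0 in testis.

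**Figure D3:**
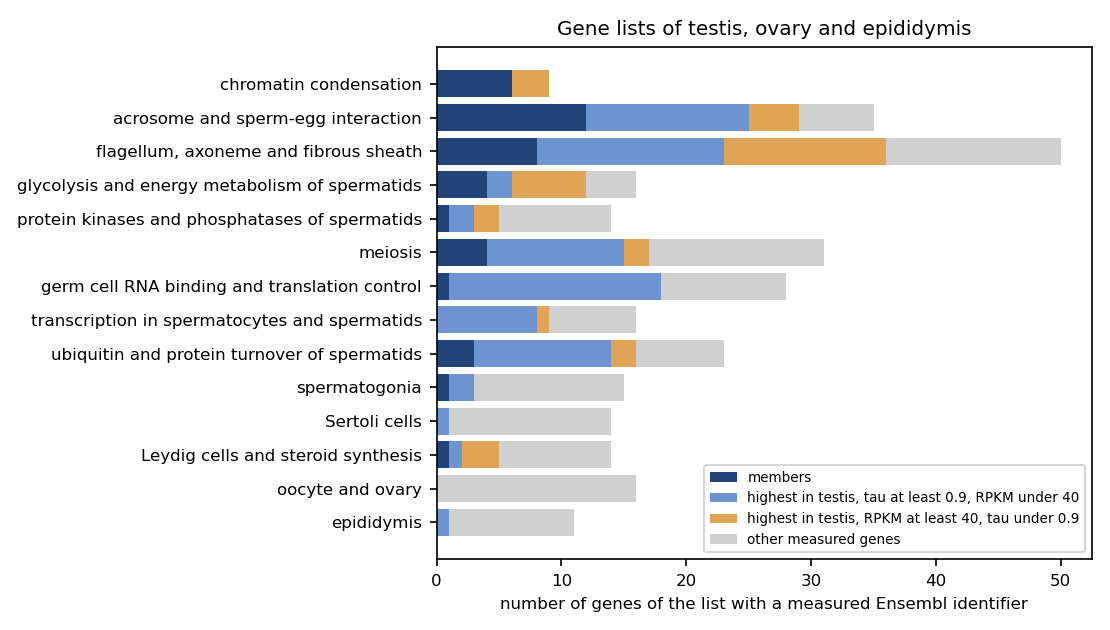
Number of measured genes in each of the gene lists (bars), split into members, genes highest in testis with tau of at least 0.9 at under 40 RPKM, genes highest in testis at 40 RPKM or more with a lower tau, and all others. Acrosome genes gave 12 members and flagellum genes 8, while the lists of transcription in spermatocytes and spermatids, Sertoli cells, oocyte and epididymis gave 0.

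The lists covered 41 members, and 37 members with a symbol stood in none of them. CCDC70, a coiled-coil protein, had 213 RPKM in testis and 0.140 in liver (3 reads). TMCO5A, a transmembrane coiled-coil protein, had 147 RPKM in testis and 0.336 in adipose (11 reads). PROCA1 had 111 RPKM in testis and 0.392 in the muscle mixture (28 reads). FAM209B had 51.0 RPKM in testis and 0.330 in spleen (11 reads), TULP2 had 46.6 and 0.232 in liver (11 reads), and PAGE2B had 56.5 and 0.354 in kidney (7 reads). Each of these genes was among the 3 highest members in the library named second.

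Outside testis, the levels of the members were low. The highest other organ had a median of 0.257 RPKM over the members, and it stayed below 1 RPKM for 110 members and reached 1 or more for 17. On the log2(RPKM + 0.1) scale, testis stood above the highest other organ by a median of 7.73, with a range of 4.11 to 10.4. Over the 578 Ensembl genes that were highest in testis at 40 RPKM or more, the median was 2.73. Both medians follow from the rule. There were 7 members at 0 in all 8 other organs, and 5 members were above 0 only in testis among the 13 libraries. With fewer than 3 reads taken as not detectable, 27 members were detected in no other organ and 18 in no other library. The reads of 30 members found in few libraries are lower bounds, so both counts may be too high.

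Ovary was the second organ for 66 members, or 52.0%. Among all 578 Ensembl genes highest in testis at 40 RPKM or more it was the second organ for 59.2%, so the share in members was close to this background. Adipose was the second organ for 12 members, lung for 11, heart for 10, kidney and muscle at day 240 for 7 each, spleen for 4 and liver for 3. Shares over the 578 genes were worked out for ovary and lung only, so the other counts have no background beside them. Some rest on few reads, such as liver for CCDC70 (3 reads). In ovary, 103 members were above 0, 72 had at least 3 reads and 13 reached 1 RPKM. Of the 21607 Ensembl genes, 16612 were above 0 in ovary, so a value above 0 there is not particular to the members. The counts at 3 reads and at 1 RPKM have no background beside them. The level in ovary was a median of 0.181% of that in testis, with quartiles of 0.0611% and 0.364%, and 10 members exceeded 1%. The summed RPKM of the members was 18116 in testis and 64.1 in ovary, a ratio of 283.

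The member highest in ovary has no symbol. ENSSSCG00000030168 had 383 RPKM in testis and 11.2 in ovary, from 20909 and 343 reads. It had 4 reads in the tissue mixture, 2 each in heart and muscle at day 30, 1 in liver and none in the other 7 libraries. Across the 127 members, which share both libraries, Spearman's rho between the testis and the ovary level was 0.428. The same measure was 0.230 for muscle at day 240, 0.179 for heart and 0.0410 for lung, and it was negative in the other 8 libraries, from -0.0471 in muscle at day 30 to -0.298 in the muscle mixture. The rule used the testis level and, through tau, limited the other organs relative to it, which can shape these values of rho. They are a description of the chosen genes, and no value over other genes stands beside them. Ovary and the tissue mixture were the libraries outside testis in which most members were above 0. Of the 21607 Ensembl genes, 16612 were above 0 in ovary and 19189 in the tissue mixture.

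**Figure D4:**
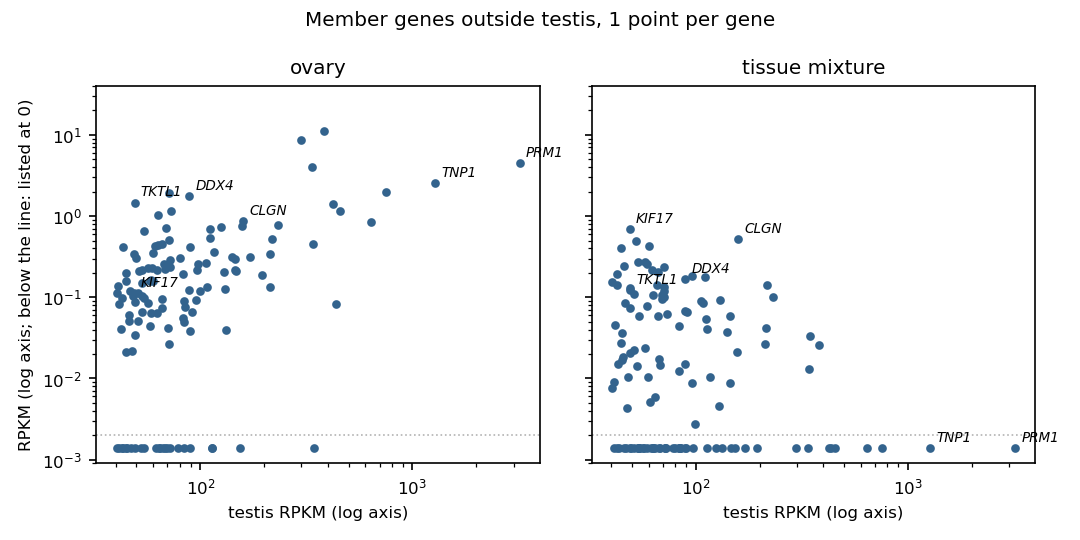
RPKM of each member in testis (horizontal log axis) against ovary (left) and the tissue mixture (right, vertical log axes), with 1 point per gene and genes listed at 0 below the dotted line. In ovary 24 members are at 0 and the highest is at 11.2 RPKM, while in the tissue mixture 49 are at 0, including PRM1 and TNP1, and the highest, KIF17, is at 0.689.

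In the organs other than testis and ovary, the summed RPKM of the members ran from 1.64 in liver to 13.7 in lung. In heart the sum was 9.05 from 333 reads, and its 3 highest members, PRM1, SMCP and CETN1, were also among the most abundant in testis. In muscle at day 240 the sum was 5.41 from 246 reads. Of the markers of Leydig cells, none of them members, INSL3 was at 1.48 RPKM (37 reads) in that library and CYP17A1 at 0.264 (16 reads). Both were at 0 in muscle at day 0 and day 30, and at 99.1 and 35.2 RPKM in ovary. The other markers of Leydig cells that were found, at 13.7 to 94.2 RPKM in testis, were at 0 in muscle at day 240. In heart, where the members summed to more, INSL3 was at 0.0727 RPKM and CYP17A1 at 0.0299, with 2 reads each. The part of RNA from testis in these values was not tested.

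In the muscle libraries that the rule did not use, the members were near 0 as well. No member reached 1 RPKM in muscle at day 0 or day 30, where 32.5% and 24.9% of all Ensembl genes did. The rule had already limited the members in muscle at day 240. Low values in other muscle libraries therefore largely follow from the choice, and all Ensembl genes are not a like background. At day 0, 113 members were listed at 0 and the other 14 summed to 2.23 RPKM. At day 30, 99 were listed at 0 and the sum was 3.26 RPKM. Of the 21607 Ensembl genes, 13238 were above 0 at day 0 and 13822 at day 30. In the muscle mixture 1 member reached 1 RPKM, against 46.8% of all Ensembl genes. That gene, ENSSSCG00000015795, had 2.47 RPKM in the muscle mixture (409 reads), 4.10% of its 60.1 RPKM in testis. It had 0.128 RPKM at day 0 (12 reads), 0.544 at day 30 (35 reads) and 0.0699 at day 240 (6 reads), all below the mixture.

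The tissue mixture was the deepest library, and the levels of the members were low in it. Of the members, 78 were above 0 in this library and 54 had at least 3 reads. No member reached 1 RPKM there, against 62.0% of all Ensembl genes. In this library 49 members, or 38.6%, were listed at 0, while 11.2% of all Ensembl genes were. All Ensembl genes had no limit on their level in the organs other than testis, so they are not a like background here either. The level in the tissue mixture was a median of 0.0171% of that in testis, with an upper quartile of 0.110% and a maximum of 1.41% for KIF17 (0.689 RPKM, 92 reads). PRM1, TNP1, CETN1 and HMGB4 had no reads in the tissue mixture, although heart, with fewer reads in all, had 8, 7, 14 and 3. Taking 3 reads as the limit in that library, PRM1 was at least 17697-fold lower there than in testis and TNP1 at least 19338-fold lower.

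Genes chosen by the same rule for liver, lung, kidney and muscle, a comparison added after seeing the data, had higher median shares in the tissue mixture. The 6 genes of liver were at a median of 30.6% of their level in liver (5.14% to 236%), and the 8 genes of muscle at day 240 at 19.7% (3.78% to 159%). The 16 genes of kidney were at 5.64% (1.43% to 19.99%) and the 7 genes of lung at 4.48% (0.506% to 13.6%). All genes of these 4 sets reached 1 RPKM in the tissue mixture, as opposed to 0 of 127 members. The 4 genes of ovary were at a median of 0.0953%, and the rule found 1 gene for spleen, at 1.47%, and none for heart. PLIN1, a lipid droplet protein and the 1 gene found for adipose, was at 0.641% and 0.526 RPKM, within the range of the members. The lowest share among the liver, muscle and kidney genes, 1.43%, was above the highest share of any member, and 1 lung gene, at 0.506%, was within the range of the members. These shares depend on the tissues in the mixture, and whether testis was among them is not given in the sources used here.

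**Figure D5:**
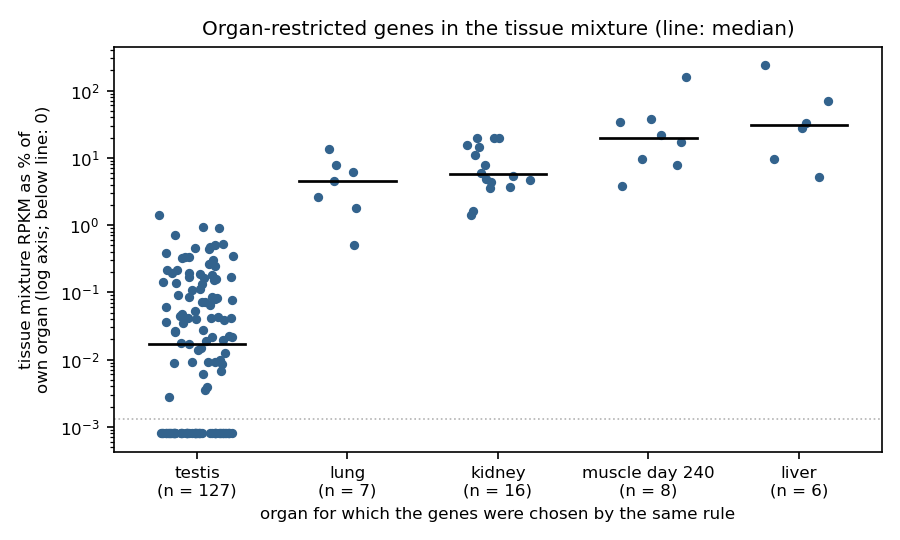
RPKM in the tissue mixture as a percent of the RPKM in the organ for which each gene was chosen (vertical log axis), with 1 point per gene and the median as a line. The testis genes have a median of 0.0171% and reach 1.41%, while the medians of the lung, kidney, muscle and liver genes lie between 4.48% and 30.6%. Not shown are the genes chosen for ovary (4 genes, median 0.0953%), adipose (1 gene, 0.641%) and spleen (1 gene, 1.47%).

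Between the mixtures, 1 member passed the filter of at least 1 RPKM in either library, and it was not higher in the tissue mixture by 4-fold or more. Among the 13674 Ensembl genes that passed this filter, 19.9% were. Summed over members, the RPKM came to 8.26 for mixed tissues and 6.59 for mixed muscle. By RPKM alone, 58 members were higher in the tissue mixture, 22 were higher in the muscle mixture and 47 were at 0 in both. In the tissue mixture and the muscle mixture, respectively, CLGN had 0.522 and 0.0165 RPKM, KIF17 0.689 and 0.0644, PROCA1 0.179 and 0.392, and ACR 0.0123 and 0.212. DDX4, at 0.168 and 0.111 RPKM, had overlapping 95% intervals.

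The members had short gene models. The length that RPKM was divided by could be worked back for the 97 members above 0 in at least 4 libraries, and its median was 1149 nt (quartiles 714 and 1845). Over 17703 Ensembl genes the median was 1823 nt, and over 548 genes highest in testis at 40 RPKM or more it was 1463 nt. Models under 1000 nt made up 39.2% of these members and 23.6% of the Ensembl genes. PRM1 had the length of 153 nt. The length was a multiple of 3 for 63 of the 97 members and for 45.8% of the Ensembl genes, and a model of coding sequence alone leaves reads in untranslated regions uncounted. The part of this in the RPKM was not tested.

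Of the members, 67 were found by symbol in the RefSeq gene table of Sscrofa11.1. In its gene order 3 pairs of members were direct neighbours: PRM1 and PRM2, ACTL7A and ACTL7B, and PLCZ1 and CAPZA3. ACTL7B, a paralog of ACTL7A, had 67.8 RPKM in testis. PLCZ1, the phospholipase of sperm that starts calcium waves in the egg, had 47.6 RPKM and CAPZA3, an actin capping protein of spermatids, had 45.9. How reads shared by close paralogs or by overlapping genes were counted is not given in the sources used here, so the levels of ACTL7A, ACTL7B, TSSK2 and CYLC2 are uncertain to that extent.

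The rule cut through a continuum. Just inside the limit of 40 RPKM, 3 members had 40.3, 40.4 and 41.1 RPKM in testis, and just outside it LRRC18 had 39.4, C10orf53 39.3 and FNDC8 38.7. Just inside the limit of tau, PRM1 had 0.901 and 2 members without a symbol had 0.9003 and 0.902. Just outside it, IQCF1 had 0.899 at 174 RPKM, SPACA1 0.899 at 92.8 RPKM and COMP 0.898 at 46.1 RPKM. Below the limit of 40 RPKM, 1286 further Ensembl genes were highest in testis with a tau of at least 0.9, and 451 genes highest in testis at 40 RPKM or more missed tau.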

How the data were processed

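RPKM values per feature were deposited by the authors, with 1 table per library listing 21607 Ensembl genes and 10813 lncRNAs. Per the labels' processing notes TopHat 1.3.2 and Cufflinks were used. The study's methods name a genome assembly and an Ensembl annotation for the methylation data and htseq-count for lncRNA reads before RPKM. For the Ensembl genes of these libraries, the build and the counting are not given in the sources used here. Libraries were strand-specific, by a SMART or dUTP protocol. Symbols were matched for 11654 Ensembl genes.

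Groups were taken from the labels, and the label "kindey" was read as kidney. Members and gene lists were chosen with earlier results of these data known. Named genes were the 15 highest in testis, the 4 highest of each list, those next to the limits of the rule and the 3 highest in each other library or by ratio in the tissue mixture, and at most 2 by identifier. ACTL7B, PLCZ1, CAPZA3, TSSK6 and PLIN1 were named after their values were seen.

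Since RPKM of whole reads takes discrete values, the total reads behind RPKM were recovered from ratios between libraries. They were 21685316 to 38581416 in single-tissue libraries, 63015726 in the muscle mixture and 108337358 in the tissue mixture. Counted reads were 3620348 to 12394421 in single-tissue libraries, most of all in testis. A length that gave whole reads within 0.0001 was found for all 29462 features above 0. For the 30 members above 0 in 1 to 3 libraries, among them PRM2, HMGB4, TSSK2 and SYCE3, reads are lower bounds. In simulated data, the method found the true total for 13 of 13 libraries and the true reads for 2182 of the 2185 simulated features that had a value in 4 or more libraries. Exact Poisson 95% intervals and a limit of 3 reads cover counting error only. No count model and no test was run. Sequences of promoters and proteins were not analysed here. Python 3.11.15, pandas 2.3.3 and scipy 1.17.1 were used. Alternatives were other limits, pseudocounts, scalings and filters.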

Additional observations from a re-analysis of the deposited data

How the results depend on the processing

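No paired analysis was possible because each tissue or stage had 1 library, and no replicate could be left out. Of 53 values under an alternative, 38 moved and 15 did not.

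The number of members was 69 with every library scaled to the same summed RPKM, which divides testis by 1.59 and ovary by 1.79, and 61 with median ratios, which divide them by 1.70 and 2.62. It was 219 at a testis limit of 20 RPKM, 53 at 80 RPKM, 72 at a tau of at least 0.95, 66 at a pseudocount of 0.01 and 201 at a pseudocount of 1. In the same order, ovary was the second organ of 32, 24, 109, 34, 40 and 39 members, and of 86 with a pseudocount of 1. The median log2 difference of testis over the highest other organ was 8.50 at 80 RPKM, 9.22 at a pseudocount of 0.01 and 5.50 at a pseudocount of 1. The count of members at least 4-fold higher in the tissue mixture than in the muscle mixture was 1 at 20 RPKM, at a tau of at least 0.85 and at a pseudocount of 1, and 2 with no filter.

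The count of members with at least 1 RPKM in the muscle libraries outside the rule was 0 with either scaling, at 80 RPKM, at a tau of at least 0.95 and at a pseudocount of 0.01. It was 2 at 20 RPKM, 5 at a tau of at least 0.85, 10 at a pseudocount of 1, 66 with any value above 0 and 23 from 0.1 RPKM. The median percent of the testis level in the tissue mixture was 0.00780 with the same summed RPKM, 0.00490 with median ratios, 0.0358 at 20 RPKM, 0.00385 at 80 RPKM, 0.00138 at a tau of at least 0.95, 0.0423 at a tau of at least 0.85, 0 at a pseudocount of 0.01 and 0.0819 at a pseudocount of 1. Both scalings, the limit of 80 RPKM, a tau of at least 0.95 and a pseudocount of 0.01 chose subsets of the 127 members, and the limit of 20 RPKM, a tau of at least 0.85 and a pseudocount of 1 kept all 127 and added genes.

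With at least 100-fold over the highest other organ in place of tau, a choice made after seeing the data, 128 genes were chosen, of which 110 were members. Depth limits single values outside testis, many of which rest on fewer than 3 reads.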

Other observations

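The rule by fold over the highest other organ, chosen after seeing the data, took in 18 genes that tau left out. They included TNP2 at 1001 RPKM in testis and 1.40 in the next organ, ANKRD35 at 585 and 3.38, PHF7 at 329 and 1.70, GSTM3, a glutathione transferase, at 310 and 1.82, CCT6B, a subunit of a cytosolic chaperonin, at 158 and 1.39, and ACRBP, which binds proacrosin, at 160 and 0.774. OAZ3, the antizyme of spermatids, had 153 RPKM in testis and 0.580 in the next organ. The same rule left out 17 members.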
